A study of Mus musculus with 18 samples.

Results

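The transcripts of 10 genes of glutathione metabolism, the NRF2 response and metal binding were followed through an RNA-seq series on mice that carry the R388W allele of Nup93, a structural gene of the nuclear pore. The genes were chosen by name: Gclc, Gclm, Gpx1, Gpx3, Gpx4, Txnrd1, Srxn1, Nqo1, Hmox1 and Mt1. All 10 were found among the 24602 gene symbols of the count table, and 10 of 10 had enough counts to be tested in every comparison. Nuclear RNA and total RNA were sequenced from 3 genotypes: homozygous for the knock-in allele (Hom), heterozygous (Het) and wild type (WT, Nup93 +/+). Each of the 6 groups held 3 libraries, 18 in all, and the strain given for the series was 129S1/SvlmJ. The labels used here name no age, sex or treatment. The sample labels call the material mouse tissue, and the series text speaks of podocytes, epithelial cells that form part of the kidney filter. The 11 podocyte markers examined took 0.0372 to 0.0666% of a library's counts, and the 13 proximal tubule markers took 1.65 to 4.43%. No marker of either list was at 0 in any group. Whether the 3 libraries of each group come from 3 animals is not stated, and p-values therefore measure only the spread between libraries, which may be technical.

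Glutathione is the main small thiol of the cell. It is made from glutamate, cysteine and glycine, is spent by the glutathione peroxidases when they reduce peroxides, and is regenerated with NADPH. NRF2, the product of Nfe2l2, is held low by KEAP1 and, under oxidative or electrophilic stress, binds antioxidant response elements with a small MAF partner and raises the transcription of Gclc, Gclm, Nqo1, Hmox1, Srxn1 and Txnrd1. Metallothioneins bind zinc and copper and are transcribed through the zinc-sensing factor MTF1 at metal response elements. In the kidney the proximal tubule has a high glutathione turnover and makes most of the circulating peroxidase Gpx3.

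Promoter windows from RefSeq (GRCm38.p6), the 250 bases before an annotated start, were searched for the 2 elements through which these factors are known to act. The 3 windows printed were chosen after the search because they hold a match, and the choice says nothing of the other genes. The antioxidant response element core was searched as TGACNNNGC and the metal response element core as TGCNCNC, both on either strand. Among all 32851 windows, 10.2% held the first and 44.4% the second. Windows were listed for 8 of the 10 genes. The Gclm window at chr3:122245307-122245556, plus strand, held 1 antioxidant core that begins 134 bases before the start, and 1 of the 3 Txnrd1 windows, chr10:82858956-82859205 on the plus strand, held 1 that begins 92 bases before it. The Mt1 window at chr8:94178839-94179088, plus strand, held 1 metal core that begins 23 bases before the start. Gclm also held 2 metal cores, 1 of which shares 3 bases with the antioxidant core. Nqo1 held 2 metal cores and Srxn1 held 1, without an antioxidant core as searched. The Srxn1 window holds TGAGTCAGC, which differs from the searched letters at 1 base and was not counted. Other spellings of the core were not searched. A metal core also stood in 3 of the 4 Gpx4 windows and in the other 2 Txnrd1 windows. Of those 3 Gpx4 windows, 2 overlap and share the same match. The windows of Gpx1 and Gpx3 held neither. A match describes letters, not a bound site. In the sequences, written 5′ to 3′, capitals mark the antioxidant core in Gclm and Txnrd1 and the metal core in Mt1.
Gclm: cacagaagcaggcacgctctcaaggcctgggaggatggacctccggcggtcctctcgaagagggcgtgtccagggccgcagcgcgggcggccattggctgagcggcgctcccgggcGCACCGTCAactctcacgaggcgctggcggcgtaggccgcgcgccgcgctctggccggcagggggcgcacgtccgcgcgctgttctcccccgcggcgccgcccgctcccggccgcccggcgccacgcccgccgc
Txnrd1: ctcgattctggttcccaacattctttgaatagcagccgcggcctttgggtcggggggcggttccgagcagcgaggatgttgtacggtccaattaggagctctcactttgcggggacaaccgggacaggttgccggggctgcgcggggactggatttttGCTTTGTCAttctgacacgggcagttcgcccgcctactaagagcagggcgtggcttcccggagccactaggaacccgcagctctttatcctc
Mt1: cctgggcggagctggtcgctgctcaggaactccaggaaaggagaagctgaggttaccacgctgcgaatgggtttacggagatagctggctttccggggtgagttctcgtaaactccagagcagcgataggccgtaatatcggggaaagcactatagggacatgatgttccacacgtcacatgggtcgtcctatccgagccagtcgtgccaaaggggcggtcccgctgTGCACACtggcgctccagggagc

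Levels are given in CPM, counts per 1000000 library counts after TMM scaling over all 18 libraries. Libraries held 17.4 to 23.5 M counts. As deposited, Total_WT replicate 1 summed to 200140709 counts. In all genes it was at least as high as the 9 nuclear columns added together, and that sum was subtracted here, leaving 19034520. Total_Hom replicate 2 stood apart from its group: its 45S ribosomal precursor Rn45s took 7.12% of counts. The median squared difference (chi-square) of its genes from each other Total_Hom library was 4.82 times sampling noise. For all other replicate pairs it was 1.29 to 1.88. Raw counts with Rn45s entered this measure, so it is not separate from the Rn45s share. Gene-level counts do not read the R388W base change, so they do not check the genotype labels. Nup93 itself averaged 20.1 ± 1.85, 22.6 ± 0.881 and 15.9 ± 0.815 CPM in nuclear Hom, Het and WT libraries, and 21.1 ± 0.614, 19.2 ± 0.448 and 20.7 ± 0.163 CPM in total Hom, Het and WT libraries (SD, n = 3 each). Xist, transcribed from the inactive X chromosome of females, averaged 504 and 516 CPM in nuclear Hom and Het libraries against 0.538 CPM in nuclear WT libraries, but 1.25 and 0.624 CPM in total Hom and Het libraries against 346 CPM in total WT libraries. The Y-linked Ddx3y ran the other way, with 0.266, 0.795 and 66.8 CPM in nuclear Hom, Het and WT libraries and 65.9, 59.0 and 0.321 CPM in total ones. In every comparison with WT, and in every comparison of nuclear with total RNA, genotype or fraction and sex-linked expression cannot be told apart. Hom against Het within a fraction is free of this split in Xist and Ddx3y. Kap, a tubule gene known to respond to androgen in mice, still differed there, at 1827 CPM in total Hom and 22975 in total Het libraries. In nuclear RNA it averaged 1948 CPM in Hom and 1610 in Het libraries.

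Per kilobase of the deposited gene length, the mean level over the 18 libraries was highest for Gpx3, at 11159.8 CPM per kb. Gpx1 followed at 1194, Gpx4 at 401 and Mt1 at 202 CPM per kb. Levels of the synthesis subunits were 112 CPM per kb for Gclm and 75.3 for Gclc. Txnrd1 and Nqo1 stood together at 48.8 and 48.7 CPM per kb, above Srxn1 at 27.8 and Hmox1 at 25.4. The highest library exceeded the lowest by 13.9 times for Hmox1, 2.49 times for Nqo1, 2.47 times for Gclc and 2.10 times for Gclm. For the other 6 genes the same ratio lay between 1.21, in Gpx3, and 1.68, in Gpx1.

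**Figure D1:**
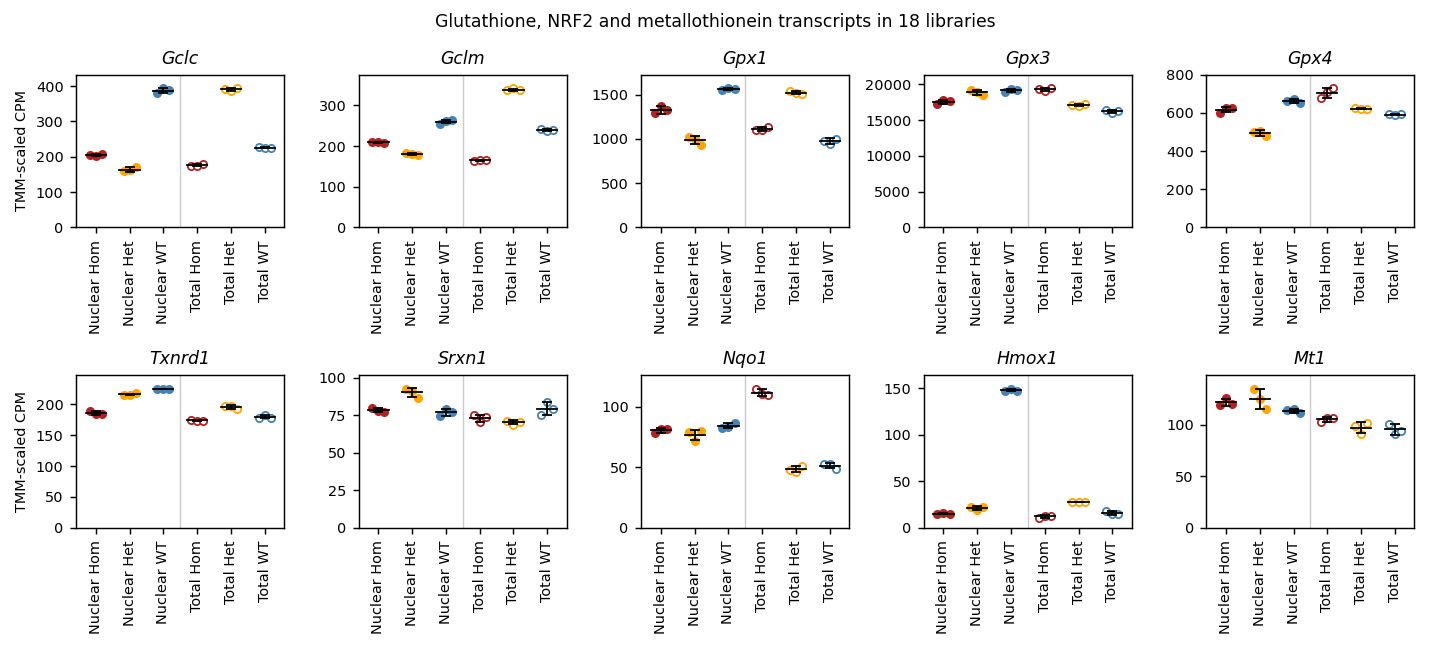
Level in CPM (vertical axis from 0) of the 10 genes in each library of the 6 groups, filled points for nuclear and open points for total RNA; the horizontal line is the group mean and the bar its SD (n = 3). Nuclear WT libraries carry Hmox1 at 147 to 149 CPM while the other 15 libraries lie at or below 27.9 CPM, and Nqo1 is highest in the 3 total Hom libraries.

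Most of the 10 genes differed between genotypes, and so did much of the transcriptome. Called here means a Benjamini-Hochberg adjusted p under 0.05 over all genes tested in edgeR's quasi-likelihood fit. In nuclear RNA, Hom against WT, 1 gene rose and 7 fell, beside 54.3% of all genes called, 26.5% higher and 27.8% lower. In nuclear Het against WT 2 rose and 6 fell, beside 64.6% of all genes called, 32.8% higher and 31.7% lower. Nuclear Hom against Het gave 4 higher and 4 lower, beside 43.2% of all genes called, 21.4% higher and 21.8% lower. In total RNA, Hom against WT, 5 rose and 4 fell, beside 61.6% of all genes called, 30.6% higher and 31.0% lower. In total Het against WT 7 rose and 1 fell, beside 61.1% of all genes called, 30.9% higher and 30.3% lower. Total Hom against Het gave 4 higher and 5 lower, beside 67.0% of all genes called, 32.9% higher and 34.1% lower. Both comparisons with WT in a fraction share its 3 WT libraries. The 10 genes' median log2 fold change was -0.18 in nuclear Hom against WT and -0.28 in nuclear Het against WT, where the medians of all genes were 0.015 and 0.024. In total RNA their median was 0.052 for Hom against WT and 0.099 for Het against WT, where those of all genes were -0.0012 and -0.010.

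Scaling moved this split for the whole transcriptome. With library totals in place of TMM factors the median log2 fold change of all genes shifted by 0.12 in nuclear Hom against WT and 0.18 in nuclear Het against WT, and 73.9% and 76.0% of called genes were higher, against 48.8% and 50.9% with TMM. In nuclear Hom against Het the share of called genes that were higher was 33.5% with library totals and 49.6% with TMM. For total Het against WT the shift was -0.18 and the shares 24.4% and 50.5%, and for total Hom against Het 0.15, 68.4% and 49.1%. Changes are given here relative to that median, with TMM factors, and values of the 10 genes that turned with library totals are given beside their changes.

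**Figure D2:**
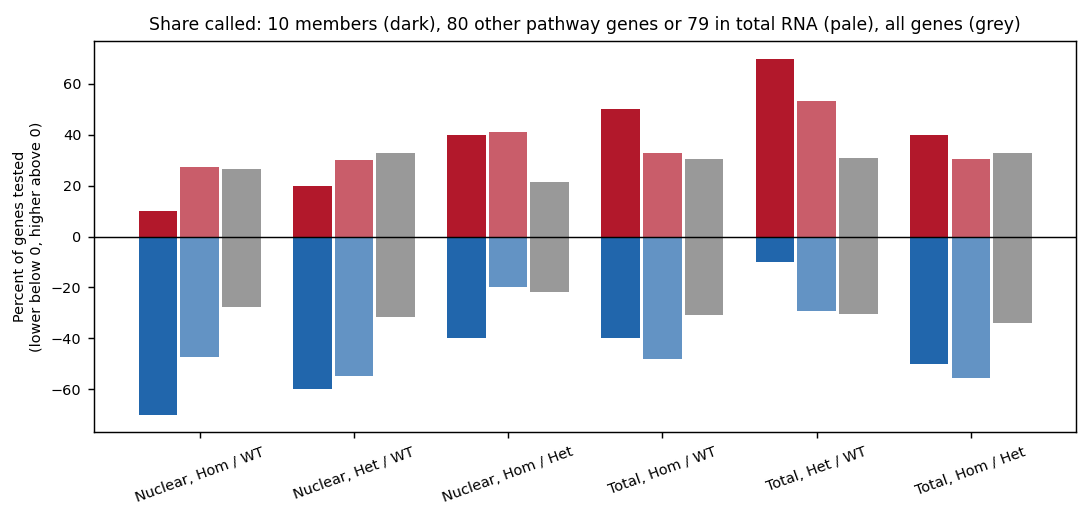
Percent of genes tested that were called higher (above 0) or lower (below 0) in each genotype comparison, for the 10 genes (dark), the other listed pathway genes (80, or 79 in total RNA; pale) and all genes (grey). In nuclear Hom against WT 1 of the 10 genes is higher and 7 are lower, beside 26.5 and 27.8% of all genes; in total Het against WT the 10 genes lie mostly above 0.

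**Figure D3:**
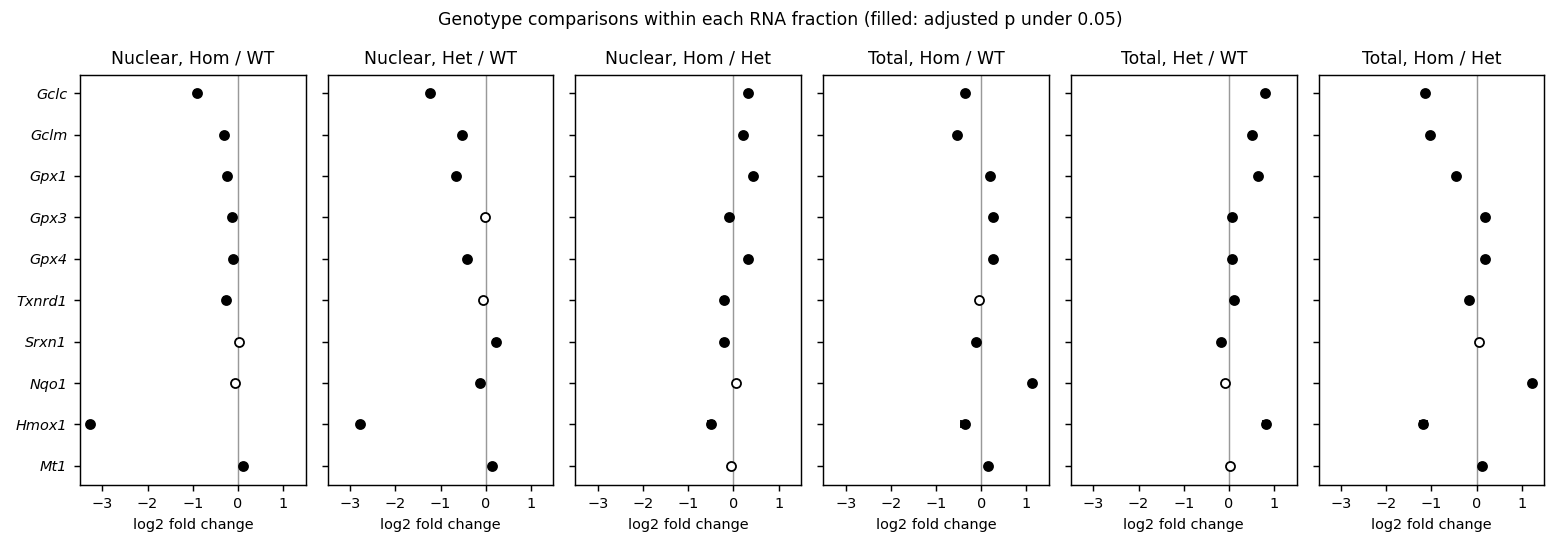
Log2 fold change of each gene (horizontal axis) in the 6 genotype comparisons, with the SE as a bar mostly hidden by the point; filled points have an edgeR adjusted p under 0.05. Hmox1 stands far left in both nuclear comparisons with WT, at -3.28 and -2.78, and Nqo1 far right in both total Hom comparisons, at 1.13 and 1.22.

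Glutamate-cysteine ligase, the rate-limiting enzyme of glutathione synthesis, is a pair of a catalytic subunit (Gclc) and a modifier subunit (Gclm), and both transcripts followed the same course. They fell in Hom and Het nuclei, rose in Het total RNA and fell in Hom total RNA, each relative to WT. In nuclear RNA Gclc had 206, 201 and 208 CPM in the 3 Hom libraries, 159, 162 and 171 CPM in the 3 Het libraries and 380.0, 393 and 389 CPM in the 3 WT libraries. In total RNA Gclc had 175, 173 and 179 CPM in the 3 Hom libraries, 391, 387 and 393 CPM in the 3 Het libraries and 226, 225 and 226 CPM in the 3 WT libraries. Groups did not overlap within a fraction, and the only neighbours in the order of the 6 groups that overlapped were the 2 highest, total Het and nuclear WT. The log2 fold change of Gclc was -0.91 ± 0.027 (SE, edgeR adjusted p = 8.55e-49) in nuclear Hom against WT and -1.24 ± 0.028 (SE, edgeR adjusted p = 1.13e-58) in nuclear Het against WT. In total RNA it was -0.36 ± 0.024 (SE, edgeR adjusted p = 1.17e-28) in Hom against WT and 0.79 ± 0.024 (SE, edgeR adjusted p = 7.08e-66) in Het against WT. Hom exceeded Het in nuclear RNA, at a log2 fold change of 0.33 ± 0.028 (SE, edgeR adjusted p = 1.24e-17), and lay below Het in total RNA, at -1.15 ± 0.024 (SE, edgeR adjusted p = 3.26e-85).

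Gclm showed the same directions at smaller size in nuclear RNA. Nuclear libraries had 209.6, 209 and 207 CPM in the 3 Hom libraries, 182, 180.0 and 179 CPM in the 3 Het libraries and 255, 262 and 263 CPM in the 3 WT libraries. Total libraries had 163, 166 and 165 CPM in the 3 Hom libraries, 337, 342 and 337 CPM in the 3 Het libraries and 243, 237 and 238 CPM in the 3 WT libraries. None of the 6 groups overlapped its neighbour in the order, which ran total Het, nuclear WT, total WT, nuclear Hom, nuclear Het and total Hom, high to low. The log2 fold change of Gclm was -0.31 ± 0.027 (SE, edgeR adjusted p = 6.29e-18) in nuclear Hom against WT, -0.53 ± 0.028 (SE, edgeR adjusted p = 4.40e-31) in nuclear Het against WT and 0.21 ± 0.028 (SE, edgeR adjusted p = 4.41e-10) in nuclear Hom against Het. Its total RNA values were -0.53 ± 0.025 (SE, edgeR adjusted p = 1.88e-44) in Hom against WT, 0.50 ± 0.024 (SE, edgeR adjusted p = 7.99e-43) in Het against WT and -1.03 ± 0.025 (SE, edgeR adjusted p = 2.20e-78) in Hom against Het. Exons of Gclm overlap those of Gm17494, on the other strand, and of Gm6061 in the GENCODE M21 annotation, and whether counting used strand is not given in the sources used here, so its counts may include reads of both.

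The balance of the 2 subunits was not constant. The CPM ratio of Gclc to Gclm averaged 0.984 ± 0.0219 in nuclear Hom, 0.908 ± 0.0403 in nuclear Het and 1.49 ± 0.0129 in nuclear WT libraries (SD, n = 3 each). In total RNA it averaged 1.07 ± 0.0234 in Hom, 1.15 ± 0.0194 in Het and 0.943 ± 0.00881 in WT libraries. The nuclear WT ratio thus lay above that of every other group. Across the 18 libraries, which fall into 6 tight groups and share depth and scaling, the Pearson r of the log2 levels was 0.908, and 0.969 over the 15 libraries outside nuclear WT.

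The other genes of glutathione synthesis, uptake and reduction are given beside the shares of all genes called higher and lower, which were 26.5% and 27.8% in nuclear Hom against WT, 32.8% and 31.7% in nuclear Het against WT, 30.6% and 31.0% in total Hom against WT and 30.9% and 30.3% in total Het against WT. Of the list's 13 genes, 2 were called higher and 8 lower in nuclear Hom against WT (median log2 fold change -0.13), and 2 higher and 10 lower in nuclear Het against WT (-0.36). In total RNA 2 were higher and 9 lower in Hom against WT (-0.33), and 8 higher and 4 lower in Het against WT (0.17). Hom against Het gave 9 higher and 2 lower in nuclear RNA, where 21.4% and 21.8% of all genes were called, and 2 higher and 9 lower in total RNA, where 32.9% and 34.1% were. The same shares are the background for the counts of the other lists. With library totals the list gave, in nuclear RNA against WT, 4 higher and 6 lower for Hom and 4 higher and 8 lower for Het, and in total RNA 6 higher and 4 lower for Het against WT and 2 higher and 6 lower for Hom against Het. Ggt1, the brush border enzyme that breaks down extracellular glutathione, averaged 764 ± 8.89, 620.1 ± 18.9 and 1221 ± 15.3 CPM in nuclear Hom, Het and WT libraries, and 548 ± 2.13, 1584 ± 34.9 and 774 ± 20.3 CPM in total Hom, Het and WT libraries (SD, n = 3 each). Its log2 fold changes against WT were -0.67 for Hom and -0.97 for Het in nuclear RNA (edgeR adjusted p = 5.60e-46 and 2.12e-58). Gss, glutathione synthetase, fell by 0.51 on the log2 scale in nuclear Hom and by 0.96 in nuclear Het, each against WT, and rose by 0.75 in total Het. Slc3a1, a subunit of the cystine transporter, rose by 0.45 in nuclear Hom against Het and fell by 0.56 in total Hom against WT.

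Proximal tubule markers also differed between the groups, in part alongside Gclc and Gclm. The summed level of 12 tubule markers, leaving out Kap, ranged from 18947 to 19408 CPM in nuclear Hom libraries, 14140.3 to 14375 in nuclear Het and 24064 to 24293 in nuclear WT. In total RNA the sum was 15177 to 15429 CPM in Hom, 24698 to 24760.1 in Het and 15813 to 15968 in WT libraries. Total Het and nuclear WT were thus highest for the marker sum as for Gclc, though nuclear Hom lay above total WT for the markers and below it for Gclc. Within the sum Acsm2 had 7034 to 7099 CPM in total Het and 4490 to 4537 in nuclear WT libraries. Its range in the other groups was 1066 to 1583 CPM, so the order of the sum rests in part on that gene. Of the 13 tubule markers, 2 were called higher and 9 lower in nuclear Hom against WT, and 0 higher and 12 lower in nuclear Het against WT. In nuclear Hom against Het 13 were higher and 0 lower, and in total Hom against Het 3 were higher and 10 lower. Total RNA against WT was mixed: 6 higher and 7 lower in Hom, where Gclc and Gclm fell, and 9 higher and 4 lower in Het, where both rose. With library totals nuclear Hom against WT gave 4 higher and 5 lower, and both Hom against Het counts were as with TMM. Kap, a tubule gene known to respond to androgen in mice, averaged 1948 ± 97.4, 1609.7 ± 18.7 and 14530.5 ± 565 CPM in nuclear Hom, Het and WT libraries and 1827 ± 56.7, 22975 ± 502 and 5400.4 ± 79.8 CPM in total ones (SD, n = 3 each). Over the 18 libraries the r of the log2 level with this sum was 0.943 for Gclc, 0.840 for Gclm and 0.954 for Gpx1, as a description of 6 groups. Markers of other cells ran differently: of 11 podocyte markers 8 were higher and 1 lower in nuclear Het against WT and 0 higher and 10 lower in total Het against WT (9 higher and 1 lower and 0 higher and 11 lower with library totals). The part of the markers in these differences was not tested, and in bulk RNA fewer cells of a type and less RNA per cell cannot be told apart.

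**Figure D4:**
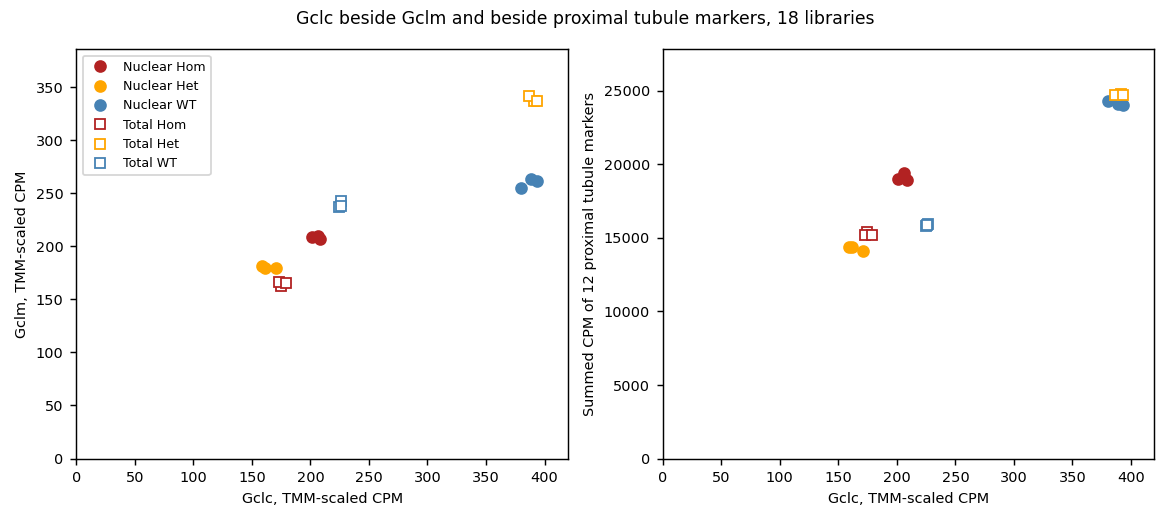
Level of Gclc in CPM (horizontal axes, from 0) against that of Gclm (left) and against the summed CPM of 12 proximal tubule markers (right) in each of the 18 libraries, filled circles for nuclear and open squares for total RNA. The 3 nuclear WT libraries lie below the other groups' line in the left panel, with a Gclc to Gclm ratio of 1.49, and total Het and nuclear WT stand at the top right of the right panel.

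Of the 3 glutathione peroxidases, Gpx1 varied most over the libraries and Gpx3 least. Gpx1 is the abundant selenoenzyme that reduces hydrogen peroxide in the cytosol. Nuclear libraries had Gpx1 at 1288, 1369 and 1325 CPM in the 3 Hom libraries, 1017, 1002 and 936 CPM in the 3 Het libraries and 1557, 1570.4 and 1565 CPM in the 3 WT libraries. Total libraries had it at 1099, 1099.8 and 1132 CPM in the 3 Hom libraries, 1539, 1519 and 1510.4 CPM in the 3 Het libraries and 982, 945 and 1002 CPM in the 3 WT libraries. No 2 genotypes overlapped within a fraction, and nuclear Het and total WT, the lowest groups, overlapped each other. The log2 fold change of Gpx1 was -0.24 ± 0.023 (SE, edgeR adjusted p = 2.14e-13) in nuclear Hom against WT and -0.66 ± 0.023 (SE, edgeR adjusted p = 4.20e-33) in nuclear Het against WT. In total RNA Gpx1 rose by 0.19 ± 0.016 (SE, edgeR adjusted p = 1.06e-21) in Hom and by 0.64 ± 0.016 (SE, edgeR adjusted p = 1.54e-70) in Het, against WT. Hom against Het was 0.43 ± 0.023 (SE, edgeR adjusted p = 1.26e-23) in nuclear RNA and -0.45 ± 0.016 (SE, edgeR adjusted p = 3.69e-54) in total RNA.

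Gpx3 encodes the secreted peroxidase of plasma. Its nuclear level averaged 17593 ± 282 CPM in Hom, 18894 ± 324 in Het and 19193 ± 187 in WT libraries, and its total level 19307 ± 202 CPM in Hom, 17104 ± 133 in Het and 16248 ± 209 in WT libraries (SD, n = 3 each). The highest 3 groups, total Hom, nuclear WT and nuclear Het, overlapped their neighbours in the order, and the other groups did not. The largest genotype difference was a log2 rise of 0.25 ± 0.0072 (SE, edgeR adjusted p = 2.84e-51) in total Hom against WT. Nuclear Hom against WT was -0.12 ± 0.013 (SE, edgeR adjusted p = 1.70e-13), and with library totals that value was -0.0013 (edgeR adjusted p = 0.929). Nuclear Het against WT was not called, at -0.020 ± 0.013 (SE, edgeR adjusted p = 0.178), and with library totals it was 0.16. Total Het against WT was 0.075 ± 0.0072 (SE, edgeR adjusted p = 4.41e-16), and turned to -0.10 with library totals.

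Gpx4 reduces lipid hydroperoxides in membranes and is known as the enzyme that holds back ferroptosis. Its levels were 601, 623 and 626 CPM in the 3 Hom libraries, 501, 504 and 479 CPM in the 3 Het libraries and 665, 671 and 652 CPM in the 3 WT libraries, in nuclear RNA. Its total RNA levels were 679, 709 and 728 CPM in the 3 Hom libraries, 626, 622 and 619.9 CPM in the 3 Het libraries and 592, 588 and 595 CPM in the 3 WT libraries. Nuclear Het lay below all other groups and total Hom above them, while total Het and nuclear Hom overlapped. The log2 fold change of Gpx4 was -0.42 ± 0.024 (SE, edgeR adjusted p = 2.97e-29) in nuclear Het against WT and 0.32 ± 0.024 (SE, edgeR adjusted p = 2.58e-21) in nuclear Hom against Het. It rose by 0.26 ± 0.019 (SE, edgeR adjusted p = 1.92e-26) in total Hom against WT and by 0.19 ± 0.019 (SE, edgeR adjusted p = 8.32e-17) in total Hom against Het. Nuclear Hom against WT, at -0.10, and total Het against WT, at 0.074, turned to 0.020 and -0.10 with library totals. Gpx4-ps2 shares 733 bases with the Gpx4 transcript at 99.7% identity and AC122253.3 shares 510 bases at 95.1%. Neither name is among the gene symbols counted. How the authors' counting treated reads that match such copies is not given, so the Gpx4 counts are uncertain there.

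The ratio of the Gpx3 to the Gpx1 level, each in CPM per kb, averaged 8.57 ± 0.128 in nuclear Hom, 12.4 ± 0.345 in nuclear Het and 7.93 ± 0.0437 in nuclear WT libraries. In total RNA the ratio averaged 11.2 ± 0.163 in Hom, 7.26 ± 0.101 in Het and 10.8 ± 0.203 in WT libraries (SD, n = 3 each). Among the 9 listed genes of other peroxidases and selenoprotein supply, 4 were higher and 4 lower in nuclear Hom against WT, and 4 higher and 3 lower in nuclear Het against WT (5 higher and 3 lower and 5 higher and 3 lower with library totals). Selenop, the carrier of selenium in plasma, averaged 1008 ± 10.9, 915 ± 6.49 and 1783 ± 17.8 CPM in nuclear Hom, Het and WT libraries. Its total levels averaged 924 ± 9.06, 2227 ± 26.5 and 930.5 ± 16.4 CPM in Hom, Het and WT libraries, so that total Het and nuclear WT were again the highest groups. Sephs2, which makes the selenium donor for selenoproteins, fell by 0.49 on the log2 scale in nuclear Hom and rose by 0.91 in total Hom, each against WT (edgeR adjusted p = 4.42e-32 and 1.01e-80). It also rose in total Het against WT, by 0.996 (edgeR adjusted p = 3.55e-86).

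Txnrd1 and Srxn1, the NRF2 targets of the thioredoxin arm, varied little. Txnrd1 encodes the cytosolic selenoenzyme that reduces thioredoxin. Nuclear Txnrd1 averaged 186 ± 3.33 CPM in Hom, 216 ± 1.55 in Het and 225 ± 0.485 in WT libraries. Total Txnrd1 averaged 174 ± 1.12 CPM in Hom, 196 ± 3.26 in Het and 179.8 ± 2.53 in WT libraries (SD, n = 3 each). No group overlapped its neighbour in the order, although the whole range was narrow. Txnrd1 fell by 0.27 on the log2 scale in nuclear Hom against WT (edgeR adjusted p = 1.52e-14) and by 0.22 in nuclear Hom against Het (1.99e-10). Nuclear Het against WT was -0.057 ± 0.028 (SE, edgeR adjusted p = 0.0668), not called, and with library totals it turned to 0.12. The same difference was called at -0.071 by DESeq2 (adjusted p = 0.0309), and by edgeR at -0.064 with RLE factors, -0.069 with no low-count filter and -0.058 in the fit of all 18 libraries (adjusted p = 0.0365, 0.0380 and 0.0497). In total RNA Hom against WT was -0.042 ± 0.027 (SE, edgeR adjusted p = 0.173), also not called. Total Het rose against WT by 0.12 ± 0.027 (SE, edgeR adjusted p = 3.04e-05), a direction that turned to -0.056 with library totals, and total Hom fell against Het at -0.16 ± 0.027 (SE, edgeR adjusted p = 3.15e-08), which was -0.011 with library totals.

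Srxn1, sulfiredoxin, returns overoxidised peroxiredoxins to use. Nuclear Srxn1 levels were 79.9, 77.9 and 77.3 CPM in the 3 Hom libraries, 92.8, 91.5 and 86.8 CPM in the 3 Het libraries and 74.9, 79.5 and 77.1 CPM in the 3 WT libraries. Total Srxn1 levels were 75.1, 70.3 and 73.9 CPM in the 3 Hom libraries, 71.5, 68.8 and 70.8 CPM in the 3 Het libraries and 75.0, 83.8 and 79.4 CPM in the 3 WT libraries. Nuclear Het stood above all other groups, and the other 5 overlapped their neighbours in the order. The log2 fold change of Srxn1 was 0.23 ± 0.038 (SE, edgeR adjusted p = 8.15e-08) in nuclear Het against WT and -0.21 ± 0.037 (SE, edgeR adjusted p = 2.15e-06) in nuclear Hom against Het, while nuclear Hom against WT was 0.026 ± 0.038 (SE, edgeR adjusted p = 0.587), and 0.15 with library totals (edgeR adjusted p = 5.42e-04). In total RNA Het fell against WT at -0.17 ± 0.036 (SE, edgeR adjusted p = 1.09e-05). Total Hom against WT was called at -0.11 ± 0.035 (SE, edgeR adjusted p = 0.00285) although its libraries overlapped, and without Total_Hom replicate 2 or without Total_WT replicate 2 the call was lost, at -0.086 and -0.073 (edgeR adjusted p = 0.0672 and 0.0908). Total Hom against Het was 0.059 ± 0.036 (SE, edgeR adjusted p = 0.140), not called, but was called at 0.21 with library totals and 0.091 with a filter at 5 CPM on average (edgeR adjusted p = 2.81e-05 and 0.0296).

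Of 14 other thioredoxin and peroxiredoxin genes, 4 were higher and 6 lower in nuclear Hom against WT, and 3 higher and 10 lower in nuclear Het against WT. In total RNA 5 were higher and 8 lower in Hom against WT, and 9 higher and 2 lower in Het against WT. With library totals the nuclear comparisons gave 8 higher and 5 lower for Hom and 6 higher and 7 lower for Het, and total Het against WT gave 3 higher and 4 lower. Prdx1, a cytosolic peroxiredoxin, averaged 659 ± 19.0, 627 ± 7.84 and 817 ± 23.0 CPM in nuclear Hom, Het and WT libraries, and 469.7 ± 10.6, 777 ± 13.1 and 701 ± 9.22 CPM in total Hom, Het and WT libraries (SD, n = 3 each). Txnip, an inhibitor of thioredoxin, rose by 0.80 ± 0.023 (SE, edgeR adjusted p = 1.91e-50) on the log2 scale in nuclear Hom against WT and by 0.89 ± 0.023 (SE, edgeR adjusted p = 3.32e-53) in nuclear Hom against Het. Glrx, glutaredoxin, rose in total RNA by 1.20 in Hom and 0.81 in Het, each against WT (edgeR adjusted p = 2.76e-63 and 2.59e-41).

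Nqo1, a quinone reductase often read as a marker of NRF2 activity, showed its large genotype differences in total Hom RNA. Nuclear Nqo1 levels were 78.4, 81.3 and 81.9 CPM in the 3 Hom libraries, 79.1, 71.9 and 79.7 CPM in the 3 Het libraries and 82.8, 83.6 and 86.9 CPM in the 3 WT libraries. Total Nqo1 levels were 115, 111 and 110.1 CPM in the 3 Hom libraries, 47.8, 46.2 and 51.1 CPM in the 3 Het libraries and 52.9, 52.3 and 48.8 CPM in the 3 WT libraries. Total Hom libraries stood above all 15 others, and total Het and total WT overlapped as the lowest groups. Nqo1 rose by 1.13 ± 0.035 (SE, edgeR adjusted p = 5.96e-64) on the log2 scale in total Hom against WT and by 1.22 ± 0.037 (SE, edgeR adjusted p = 9.95e-66) in total Hom against Het, a fold of 2.19 and 2.32. Total Het against WT was -0.086 ± 0.042 (SE, edgeR adjusted p = 0.0677) and not called, but it was called at -0.26 with library totals (edgeR adjusted p = 2.16e-06), at -0.11 with a filter at 5 CPM on average (0.0209), and at -0.12 and -0.12 without Total_WT replicate 3 and without Total_Het replicate 3 (0.0186 and 0.0203). In nuclear RNA Hom against WT was -0.065 ± 0.038 (SE, edgeR adjusted p = 0.141) and Hom against Het 0.066 ± 0.039 (SE, edgeR adjusted p = 0.164), neither called, and the first turned to 0.057 with library totals. Nuclear Het fell against WT at -0.13 ± 0.039 (SE, edgeR adjusted p = 0.00206), which turned to 0.046 with library totals and was not called without Nuclear_Het replicate 2 (edgeR adjusted p = 0.0709).

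Other listed NRF2 targets did not follow Nqo1 as a block. Of 12, 8 were higher and 4 lower in nuclear Hom against WT and likewise in nuclear Het against WT, and 5 were higher and 4 lower in total Hom against WT. In total Het against WT 3 were higher and 7 lower, and in total Hom against Het 8 higher and 3 lower. Library totals changed these counts by at most 2 genes in a direction. Gsta4, a glutathione transferase for lipid aldehydes, averaged 267 ± 9.34, 193 ± 5.40 and 58.6 ± 2.82 CPM in nuclear Hom, Het and WT libraries, and 89.0 ± 1.30, 32.1 ± 0.497 and 165 ± 3.58 CPM in total ones (SD, n = 3 each). Its highest groups were thus nuclear Hom, nuclear Het and total WT, the groups with Xist. Abcc4, an organic anion exporter, rose by 0.96 in nuclear Hom and 1.02 in nuclear Het and fell by 1.02 in total Het, each on the log2 scale against WT. Gstm1, another glutathione transferase, rose by 0.46 ± 0.018 (SE, edgeR adjusted p = 2.46e-53) in total Hom against WT. Akr1b8, an aldo-keto reductase, fell by 1.34 in nuclear Hom against Het (edgeR adjusted p = 3.10e-30).

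Among 10 regulators of NRF2, 1 was higher and 5 lower in nuclear Hom against WT, and 6 higher and 1 lower in total Hom against WT. With library totals nuclear Hom against WT gave 5 higher and 3 lower, and total Hom against WT 5 higher and 1 lower. Nfe2l2 and Keap1 are described because they encode NRF2 and its inhibitor, and were chosen after their values were seen. Nfe2l2 averaged 156 ± 4.75, 163 ± 5.13 and 125 ± 1.79 CPM in nuclear Hom, Het and WT libraries and 147 ± 5.68, 106 ± 7.50 and 122 ± 3.80 CPM in total ones (SD, n = 3 each). It rose by 0.32 ± 0.032 (SE, edgeR adjusted p = 2.22e-15) in nuclear Hom and 0.27 ± 0.033 (SE, edgeR adjusted p = 4.52e-12) in total Hom, each on the log2 scale against WT. In total Het against WT it fell, at -0.20 ± 0.034 (SE, edgeR adjusted p = 1.81e-07). Group means of Keap1 lay between 61.2 and 65.6 CPM, and it was called in 0 of the 6 genotype comparisons by edgeR. Sqstm1, which encodes p62, a protein that binds KEAP1, fell by 0.45 in nuclear Hom and 0.50 in nuclear Het and rose by 0.51 in total Het, on the log2 scale against WT. Cul3, the ubiquitin ligase scaffold that KEAP1 uses, fell by 0.40 in nuclear Hom and 0.41 in nuclear Het. In total RNA against WT it rose by 0.37 in Het (edgeR adjusted p = 4.02e-23) and was not called in Hom, at -0.016 (edgeR adjusted p = 0.656). Maff, a small MAF partner, averaged 12.9 ± 0.522 CPM in total Hom and 5.74 ± 0.669 CPM in total WT libraries, a log2 rise of 1.18 ± 0.10 (SE, edgeR adjusted p = 1.55e-20).

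Hmox1, the inducible heme oxygenase that splits heme into biliverdin, iron and carbon monoxide, showed the widest range, set by nuclear WT. Nuclear libraries had Hmox1 at 15.1, 16.1 and 14.5 CPM in the 3 Hom libraries, 22.6, 19.1 and 22.7 CPM in the 3 Het libraries and 147, 149 and 148 CPM in the 3 WT libraries. Total libraries had it at 10.7, 13.0 and 12.7 CPM in the 3 Hom libraries, 27.8, 27.8 and 27.9 CPM in the 3 Het libraries and 17.9, 15.0 and 14.3 CPM in the 3 WT libraries. All 3 nuclear WT libraries stood above the other 15, and total WT and nuclear Hom were the only neighbours in the order that overlapped. The log2 fold change of Hmox1 was -3.28 ± 0.048 (SE, edgeR adjusted p = 4.67e-74) in nuclear Hom against WT and -2.78 ± 0.045 (SE, edgeR adjusted p = 4.91e-70) in nuclear Het against WT. In total RNA Hom fell against WT at -0.36 ± 0.082 (SE, edgeR adjusted p = 5.25e-05) and Het rose at 0.82 ± 0.074 (SE, edgeR adjusted p = 5.25e-20). Hom lay below Het in both fractions, at -0.49 ± 0.065 (SE, edgeR adjusted p = 3.70e-10) in nuclear and -1.19 ± 0.077 (SE, edgeR adjusted p = 1.00e-30) in total RNA. With the deposited column of Total_WT replicate 1, which includes the nuclear WT counts, total Het against WT was -0.15 (edgeR adjusted p = 0.854).

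Macrophages and the handling of red cells are known sources of Hmox1 in tissue, so the markers of both are given beside it. The 13 immune markers summed to 525 to 542 CPM in nuclear Hom, 1542 to 1626 in nuclear Het and 561 to 578 in nuclear WT libraries, and to 984 to 988, 994 to 999 and 819 to 839.6 CPM in total Hom, Het and WT libraries, with 0 markers at 0. The order of nuclear Hom and WT in this sum rests on Cd74, at 272 to 283 and 375 to 382 CPM. Lyz2 ran the other way, at 77.0 to 85.3 and 33.7 to 39.0 CPM. Ptprc, Adgre1, C1qa, C1qb, C1qc, Itgam, Tyrobp and Fcer1g were also higher in all nuclear Hom than in all nuclear WT libraries. Between these groups Cd68, Csf1r and Cd3e overlapped. The 9 erythroid markers summed to 137 to 139, 110.0 to 113 and 146 to 152 CPM in nuclear Hom, Het and WT libraries and to 191 to 199, 153 to 157 and 224 to 238 CPM in total ones, and 5 or 6 of them, hemoglobin genes, were at 0 in each group. Alas2 and Slc4a1, the second also a gene of kidney collecting duct cells, carried almost all of the erythroid sum. The part of either cell type in the Hmox1 differences was not tested. Of the 7 other genes of heme and iron handling, 2 were higher and 3 lower in nuclear Hom against WT, and 3 higher and 4 lower in total Hom against WT (2 higher and 2 lower and 2 higher and 4 lower with library totals). Ftl1, the ferritin light chain, rose by 0.32 ± 0.021 (SE, edgeR adjusted p = 8.30e-20) in nuclear Hom against WT, and Tfrc, the transferrin receptor, fell there by 0.40 on the log2 scale. Slc40a1, the iron exporter ferroportin, averaged 65.8 ± 1.94 CPM in total Hom, 79.1 ± 3.32 in total Het and 108 ± 2.92 in total WT libraries. Blvrb, a biliverdin reductase, rose by 0.79 ± 0.047 (SE, edgeR adjusted p = 4.55e-34) in total Hom against WT.

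Mt1, a metallothionein, had no genotype difference over 0.15 on the log2 scale. Nuclear Mt1 levels were 119.6, 126 and 119.8 CPM in the 3 Hom libraries, 135, 125 and 116 CPM in the 3 Het libraries and 114, 115 and 111 CPM in the 3 WT libraries. Total Mt1 levels were 102, 107 and 106 CPM in the 3 Hom libraries, 98.5, 91.2 and 102 CPM in the 3 Het libraries and 101, 91.2 and 94.0 CPM in the 3 WT libraries. The nuclear groups all lay above the total groups, nuclear Het and Hom overlapped, and so did total Het and WT. The lowest total Hom library lay just above the highest total Het and WT libraries. Mt1 rose by 0.10 ± 0.037 (SE, edgeR adjusted p = 0.0148) in nuclear Hom and 0.15 ± 0.037 (SE, edgeR adjusted p = 4.11e-04) in nuclear Het, each against WT on the log2 scale. The nuclear Hom call was lost without Nuclear_WT replicate 3 or Nuclear_Hom replicate 2, at 0.089 and 0.077 (edgeR adjusted p = 0.0713 and 0.111), and with DESeq2 (adjusted p = 0.0856). Total Hom rose against WT by 0.15 ± 0.034 (SE, edgeR adjusted p = 1.07e-04) and against Het by 0.12 ± 0.035 (SE, edgeR adjusted p = 0.00178), the second not called without Total_Het replicate 2 (edgeR adjusted p = 0.0699). Nuclear Hom against Het was -0.043 ± 0.036 (SE, edgeR adjusted p = 0.357) and total Het against WT 0.028 ± 0.035 (SE, edgeR adjusted p = 0.510), neither called. With library totals both were called, at -0.098 in nuclear Hom against Het and, turned in direction, at -0.15 in total Het against WT (edgeR adjusted p = 0.0198 and 0.00253).

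Mt2, another metallothionein, averaged 54.4 ± 2.65, 63.3 ± 4.37 and 54.6 ± 0.999 CPM in nuclear Hom, Het and WT libraries and 45.4 ± 1.53, 52.6 ± 2.56 and 42.6 ± 2.65 CPM in total ones (SD, n = 3 each). Mt2 rose by 0.22 ± 0.044 (SE, edgeR adjusted p = 1.24e-05) in nuclear Het against WT and fell by 0.22 on the log2 scale in nuclear Hom against Het (edgeR adjusted p = 1.27e-05). Of the 6 other genes of metallothioneins and zinc, 5 were tested in each fit, and 0 were higher and 3 lower in nuclear Hom against WT. With library totals this was 1 higher and 1 lower. Slc30a1, a zinc exporter known as a target of MTF1, fell by 0.24 in nuclear Hom and 0.28 in nuclear Het and rose by 0.70 in total Het, on the log2 scale against WT. Mtf1 fell by 0.20 in nuclear Hom and by 0.18 in total Hom, against WT (edgeR adjusted p = 5.58e-04 and 0.00435), and the nuclear value was -0.081 and not called with library totals (edgeR adjusted p = 0.174).

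Transcripts of the enzymes that remove superoxide and hydrogen peroxide beside glutathione differed between Hom and Het in opposite directions in the 2 fractions. So did Gclc, Gclm, Gpx1 and most proximal tubule markers. All 4 superoxide dismutase and catalase genes were higher in nuclear Hom against Het and lower in total Hom against Het, with TMM and with library totals, beside 21.4% of all genes higher in nuclear and 34.1% lower in total RNA. All 4 were also lower in nuclear Het against WT and higher in total Het against WT, where library totals gave 2 higher and 0 lower. In nuclear Hom against WT 0 of them were higher and 2 lower, and 2 higher and 2 lower with library totals. Of 6 genes that supply NADPH, 3 higher and 3 lower were called in nuclear Hom against Het and 2 higher and 3 lower in total Hom against Het. Cat, catalase, averaged 1098 ± 16.7, 834 ± 8.25 and 1113 ± 18.5 CPM in nuclear Hom, Het and WT libraries and 583 ± 5.81, 1025 ± 15.5 and 722 ± 3.81 CPM in total ones (SD, n = 3 each). Sod2, the mitochondrial superoxide dismutase, fell by 0.57 on the log2 scale in total Hom against WT (edgeR adjusted p = 4.72e-49). Me1, a malic enzyme that supplies NADPH, averaged 249 ± 3.53, 203 ± 2.23 and 486 ± 9.11 CPM in nuclear Hom, Het and WT libraries and 173 ± 3.35, 608 ± 7.84 and 259 ± 2.99 CPM in total ones. Its log2 fold change was -1.81 ± 0.023 (SE, edgeR adjusted p = 3.04e-114) in total Hom against Het. Over all 81 listed genes outside the 10, with 80 tested in nuclear and 79 in total RNA, 33 higher and 16 lower were called in nuclear Hom against Het and 24 higher and 44 lower in total Hom against Het, with median log2 fold changes of 0.045 and -0.14. The shares of all genes called were 43.2% and 67.0%. With library totals the pathway counts were 26 higher and 24 lower and 30 higher and 30 lower.

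Whether genotype acted alike in both fractions was asked with the nuclear-to-total ratio, an interaction in 1 fit of all 18 libraries. Hom relative to Het is the case without the Xist split between genotypes. Its nuclear libraries carried Xist and its total libraries Ddx3y, so fraction and sex-linked expression cannot be told apart in it. In each genotype Xist was almost absent from 1 fraction and Ddx3y from the other. The ratio is therefore not the nuclear share of the RNA of 1 sample. In Hom relative to Het 5 of the 10 ratios were higher and 4 lower, beside 63.6% of all genes called, 31.7% higher and 31.9% lower. Gclc and Gclm differed most upward: their log2 ratio changes were 1.48 ± 0.037 (SE, edgeR adjusted p = 8.98e-77) and 1.25 ± 0.037 (SE, edgeR adjusted p = 1.09e-67), since Hom lay above Het in nuclear RNA and below it in total RNA. Gpx1 did the same at 0.89 ± 0.033 (SE, edgeR adjusted p = 1.03e-24), and Hmox1, lower in Hom in both fractions, at 0.70 ± 0.10 (SE, edgeR adjusted p = 6.36e-10). Nqo1 differed most downward at -1.14 ± 0.055 (SE, edgeR adjusted p = 7.68e-44), where the total RNA difference was large and the nuclear one was not called. Smaller values were -0.28 for Gpx3, -0.26 for Srxn1, -0.16 for Mt1 and 0.14 for Gpx4, all called by edgeR (adjusted p at most 0.0153), and -0.046 ± 0.039 (SE, edgeR adjusted p = 0.299) for Txnrd1, not called. The Txnrd1 ratio was called at -0.26 with library totals and -0.092 with a filter at 5 CPM on average (edgeR adjusted p = 1.70e-06 and 0.0248). The Mt1 call was lost without Nuclear_Het replicate 1 or Total_Het replicate 2 (edgeR adjusted p = 0.101 and 0.0550), and the Gpx4 value turned to -0.077 with library totals, which shifted the median of all genes by -0.21.

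**Figure D5:**
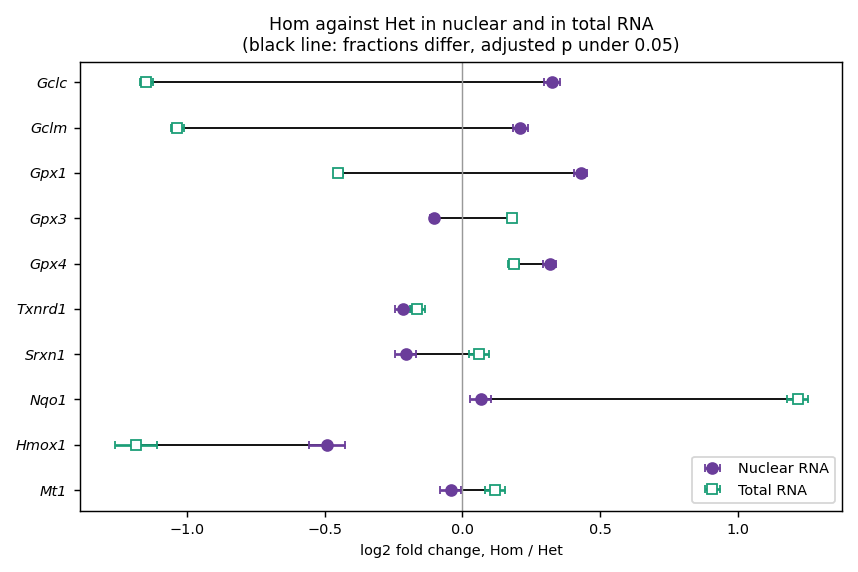
Log2 fold change of Hom against Het in nuclear RNA (filled circles) and total RNA (open squares) for each gene, with the SE as bars; a black line joins the 2 where the nuclear-to-total ratio differed at an edgeR adjusted p under 0.05. Gclc, Gclm and Gpx1 lie right of 0 in nuclear and left of 0 in total RNA, while Nqo1 is near 0 in nuclear RNA and at 1.22 in total RNA.

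Relative to WT, the nuclear-to-total ratio of Hom was higher for 2 of the 10 genes and lower for 7, beside 56.1% of all genes called, 28.4% higher and 27.7% lower. The ratio of Het was higher for 1 and lower for 7, beside 70.7% of all genes called, 37.8% higher and 32.9% lower. These comparisons share the 6 WT libraries and carry the Xist split in both fractions. Hmox1 had the largest values, -2.91 ± 0.099 (SE, edgeR adjusted p = 1.13e-57) for Hom and -3.60 ± 0.085 (SE, edgeR adjusted p = 5.75e-77) for Het on the log2 scale. Gclc stood at -0.55 ± 0.037 (SE, edgeR adjusted p = 4.92e-30) for Hom and -2.03 ± 0.037 (SE, edgeR adjusted p = 7.31e-96) for Het. Gclm parted from Gclc: its ratio was higher in Hom, at 0.22 ± 0.037 (SE, edgeR adjusted p = 6.33e-08), and lower in Het, at -1.03 ± 0.037 (SE, edgeR adjusted p = 2.74e-58). Nqo1 was lower in Hom at -1.19 ± 0.053 (SE, edgeR adjusted p = 8.63e-47) and not called in Het, at -0.047 ± 0.058 (SE, edgeR adjusted p = 0.474), which turned to 0.31 and was called with library totals (edgeR adjusted p = 4.46e-06). Mt1 was not called in Hom, at -0.039 ± 0.057 (SE, edgeR adjusted p = 0.585), and turned to 0.11 with library totals. Srxn1 was higher in both, at 0.14 ± 0.053 (SE, edgeR adjusted p = 0.0145) for Hom and 0.40 ± 0.053 (SE, edgeR adjusted p = 1.28e-11) for Het, though the Hom value was not called without Total_Hom replicate 2 (edgeR adjusted p = 0.0977), Total_WT replicate 2 or Nuclear_WT replicate 1. With DESeq2 on all libraries the Srxn1 Hom value, 0.14, was also not called (adjusted p = 0.0575). For Het the Gpx3 and Txnrd1 values, -0.096 and -0.18, turned to 0.26 and 0.18 with library totals, which shifted the all-gene median by 0.36 and put the share of called genes that were higher at 78.7%, against 53.4% with TMM.

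Nuclear against total RNA within a genotype gave 7 higher and 3 lower in Hom, beside 60.3% of all genes called, 30.5% higher and 29.8% lower. In Het 5 were higher and 5 lower, beside 63.6% of all genes called, 33.4% higher and 30.2% lower. In WT 9 were higher and 0 lower, beside 61.7% of all genes called, 30.9% higher and 30.8% lower. The nuclear level of Hmox1 exceeded the total level by 1.25-fold in Hom and 9.40-fold in WT, and was 0.773 times the total level in Het. For Gclc the same fold was 1.17 in Hom, 0.419 in Het and 1.72 in WT. In Hom, nuclear Nqo1 lay below total Nqo1, at a log2 fold change of -0.47, and in Het and WT above it, at 0.67 and 0.72 (edgeR adjusted p = 9.52e-26, 7.99e-33 and 2.35e-37). Mt1 was higher in nuclear RNA in all 3 genotypes, by 0.21 in Hom, 0.37 in Het and 0.25 in WT on the log2 scale. The Gclm difference in WT, 0.12, turned to -0.037 with library totals, which moved the share of called genes that were higher to 25.4% in WT, against 50.1% with TMM, and to 77.3% in Het, against 52.5%. In each genotype the 2 fractions also differed in Xist and Ddx3y, so fraction and sex-linked expression cannot be told apart here. For the same reason these values are not nuclear shares of the RNA of single samples.

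The genes whose pattern was most like that of a member were found by Pearson r of log2 CPM over the 18 libraries among the 11232 genes that average 5 CPM or more, as a description of 6 tight groups that share depth and scaling. Gclc was followed most closely by Gcnt1, Tmem106b and Pigq, with r of 0.991 for the first. For Gclm they were Atp6v1a, Myo5a and Odc1 (first r 0.993), and for Gpx1 Bckdha, Slc9a3 and Gcdh (first r 0.992). Hmox1 was most like Hspa5, Bmi1 and Hyou1, and the r with Hspa5 was 0.973 over 18 libraries but 0.704 over the 15 outside nuclear WT. The nearest to Nqo1 were Phactr1, Ip6k1 and Slc5a12, the first at 0.962. Gpx4 was nearest to Coa6, Aqp1 and Ccs (first r 0.950) and Gpx3 to Bhlhe41, Ubtf and Sfpq (first r 0.931). Txnrd1 was nearest to Rcan1, Acbd3 and Pikfyve, Srxn1 to Tgfa, Cck and Ptpro, and Mt1 to Gstt1, Mid1ip1 and Shd, with a first r of 0.938, 0.919 and 0.923.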

How the data were processed

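The authors deposited raw counts of reads for each gene in 1 table, beside gene lengths. The labels' protocols name TRIzol for extraction and the KAPA Stranded mRNA-Seq Kit for libraries. Per the submitters' processing notes, CASAVA, STAR 2.5.2b, featureCounts, DESeq2 and the build mm9 were used, with no roles or settings given. The strand setting and annotation are not given in the sources used here. The members and gene lists were chosen with earlier results of these data known.

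Counts were analysed with edgeR 4.0.16 (R 4.3.3): filterByExpr, TMM, robust quasi-likelihood fits and Benjamini-Hochberg adjustment over 15112 nuclear, 15051 total or, for ratios and fractions, 15410 genes. The biological coefficient of variation was 3.05, 3.90 and 3.54%. CPM use TMM sizes of all 18 libraries. SE were taken from the log2 fold change and its F statistic. The fits were tested on simulated counts. Beside the 10 genes, up to 2 called genes per list and comparison with the smallest p and a mean of at least 5 CPM could be named, besides Nup93 and the sex-linked genes; a gene so named is described in other comparisons too. Alternatives were DESeq2 1.42.0, other scalings, filters, fits and leaving out each library, and for the lists, chosen after seeing the data, library totals, RLE factors and leaving out Total_Hom replicate 2. Near-identical transcripts and overlapping exons were looked up in GENCODE M21.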

Additional observations from a re-analysis of the deposited data

Results flagged for a closer look

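The nuclear and total RNA effects of genotype differed, by the interaction test in edgeR (adjusted p under 0.05), for 9 of the 10 genes in Hom relative to WT, 8 in Het relative to WT and 9 in Hom relative to Het. The log2 change of the nuclear-to-total ratio in Hom relative to WT stood at -0.55 for Gclc, 0.22 for Gclm, -0.42 for Gpx1, -0.37 for Gpx3, -0.36 for Gpx4, -0.23 for Txnrd1, 0.14 for Srxn1, -1.19 for Nqo1 and -2.91 for Hmox1. In Het relative to WT the values were Gclc at -2.03, Gclm at -1.03, Gpx1 at -1.31, Gpx3 at -0.096, Gpx4 at -0.49, Txnrd1 at -0.18, Srxn1 at 0.40 and Hmox1 at -3.60. In Hom relative to Het they were Gclc at 1.48, Gclm at 1.25, Gpx1 at 0.89, Gpx3 at -0.28, Gpx4 at 0.14, Srxn1 at -0.26, Nqo1 at -1.14, Hmox1 at 0.70 and Mt1 at -0.16. Of all genes tested, 56.1%, 70.7% and 63.6% differed in these 3 comparisons, in the same order. In each genotype the fractions also differed in Xist and Ddx3y, which these ratios cannot set apart from fraction. The groups held 3 libraries each, too few for the check of single libraries.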

How the results depend on the processing

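Across 2010 values of the 10 genes under alternatives, 1928 kept their direction and side of the threshold, 36 lost a call, 22 gained one and 24 turned. Most turns came with library totals alone, where the median of all genes shifts: 0.020 for Gpx4 in nuclear Hom against WT, 0.057 for Nqo1 in the same, 0.16 for Gpx3 in nuclear Het against WT, 0.046 for Nqo1 in the same, 0.12 for Txnrd1 in the same, -0.10 for Gpx3 in total Het against WT, -0.10 for Gpx4 in the same, -0.056 for Txnrd1 in the same, -0.15 for Mt1 in the same and -0.037 for Gclm in WT nuclear against total RNA. In the ratios they were 0.11 for Mt1 in Hom relative to WT, 0.26 for Gpx3 in Het relative to WT, 0.31 for Nqo1 in the same, 0.18 for Txnrd1 in the same and -0.077 for Gpx4 in Hom relative to Het. With a mean of at least 5 CPM, 0.028 was found for Gpx3 in nuclear Het against WT and 0.028 for the Nqo1 ratio of Het relative to WT. With the deposited column of Total_WT replicate 1, which holds 9 other libraries, 4 of the 10 genes were called in total Het against WT, against 8, and values turned to -0.15 for Hmox1 in that comparison, -0.066 for Mt1 in the same, 0.050 for Mt1 in the ratio of Hom relative to WT and 0.20 for Nqo1 in the ratio of Het relative to WT. Leaving out 1 library turned only Mt1 values that were not called: 0.0096 in nuclear Hom against Het without Nuclear_Het replicate 1, and -0.0065 and -0.0053 in total Het against WT without Total_WT replicate 2 and Total_Het replicate 3, where the highest value was 0.074. Apart from library totals, filters and the deposited column, the cause of a turn was not tested.

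Leaving out 1 library at a time, the number of the 10 genes called was 7 to 8 in nuclear Hom against WT and in nuclear Het against WT, 8 to 9 in nuclear Hom against Het, in the 3 total RNA comparisons and in the 3 ratios, 9 to 10 in Hom nuclear against total RNA, 10 to 10 in Het and 9 to 9 in WT. Replicate numbers did not pair the libraries: in 0 of 15 group pairs was every same-number correlation over 0.1 (range -0.069 to 0.066). With the replicate block the number of the 10 genes called was 8 in nuclear Hom against WT, as without it, and no call on the 10 genes changed in any comparison. Among the other pathway genes in the genotype comparisons, library totals ended or turned 64 calls, RLE factors 0 and leaving out Total_Hom replicate 2 6.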
